A study of Homo sapiens with 4 samples.

Results

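The enzymes that add methyl groups to histone lysines and those that take them off were followed after METTL14 knockdown in SK-N-BE(2), a human neuroblastoma (NB) cell line that carries extra copies of MYCN. The members were the protein-coding genes of the count table whose symbol begins with KDM, KMT or SETD followed by a number or letter, plus 16 named genes (EHMT1, EHMT2, EZH1, EZH2, SUV39H1, SUV39H2, SETDB1, SETDB2, SETMAR, NSD1, NSD2, NSD3, ASH1L, DOT1L, SMYD2 and SMYD3). This gave 53 of the 60671 genes in the table, 33 methyltransferases and related SET genes and 20 demethylases, and 50 of them had enough counts to test. The other 3 were KDM4E and KDM4F, with 0 counts in each library (a count of 0 allows up to about 3 counts), and the Y-linked KDM5D, whose level is not given here.

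RNA was sequenced from cells carrying a scrambled control hairpin (shNC, 2 libraries) or a hairpin against METTL14 (shMETTL14, 2 libraries), to ask how the mRNA profile of NB cells changes when METTL14 is reduced. METTL14 is the partner of METTL3 in the enzyme that writes N6-methyladenosine (m6A) on mRNA. Both groups are the same line, with no treatment other than the hairpin in the labels. The study describes more than 1 METTL14 hairpin, and the labels do not say which hairpin each shMETTL14 library carries or whether the libraries come from separate cultures, so the p-values measure the spread between these libraries, which may be technical.

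Methylation of histone H3 at lysine 4 (H3K4) marks active promoters and enhancers, methylation at H3K36 and H3K79 goes with transcribed gene bodies, and methylation at H3K9 and H3K27 marks silent chromatin. The methyltransferases, nearly all with a SET domain (DOT1L is the exception), take the methyl group from S-adenosylmethionine. The demethylases are either flavin-dependent amine oxidases (KDM1A, also called LSD1, and KDM1B) or JmjC enzymes, which need iron and alpha-ketoglutarate. In NB, EZH2 and KDM1A have been studied as drug targets, mainly in tumors with amplified MYCN.

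Each library held between 18925786 and 19886214 counts in genes. METTL14 itself stood at 37.8 and 39.4 CPM (counts scaled to the size of the library, after TMM normalization) in the shNC libraries and at 15.5 and 16.7 CPM in the shMETTL14 libraries, a log2 fold change of -1.26 ± 0.08 (SE; edgeR quasi-likelihood F-test with Benjamini-Hochberg adjustment over 16309 genes, adjusted p = 3.6e-11). The labels of all 4 libraries therefore matched the target. All 8 noradrenergic NB markers were expressed, with MYCN the most abundant, while the leukocyte marker PTPRC, the endothelial marker PECAM1 and the liver marker ALB lay at or below 40 counts in each library. PDGFRB, one of the fibroblast markers, was higher, at a mean of 17.05 CPM per kb in shNC and 14.98 CPM per kb in shMETTL14, and it fell, while COL1A2 had 2 and 6 counts in shNC and 11 and 18 in shMETTL14 and was called higher (log2 fold change 1.83 ± 0.62, adjusted p = 0.0167). EPCAM (48 to 93 counts) and COL1A1 (163 to 254 counts) were low and fell, and 6 of the 8 noradrenergic markers fell, DBH the most (-0.79), while MYCN (0.28) and ISL1 (0.28) rose. The part of such shifts in the members' changes was not tested. In bulk RNA, fewer cells of a type and less RNA per cell cannot be told apart.

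METTL14 knockdown changed 34 of the 50 members tested (68.0%), and the change was balanced, with 17 higher (34.0%) and 17 lower (34.0%). The knockdown moved much of the transcriptome: 52.5% of all genes tested were called at an adjusted p under 0.05, 27.2% higher and 25.3% lower. Of the 12809 protein-coding genes, the class of all members, 58.5% were called, 4221 genes higher and 3273 lower. The members' share of calls is thus read against a high background. Their changes were small. Only KDM4C and SETDB2 were called with a change of at least 1.5-fold, 2 of 50 members (4%). This held for 18.8% of all genes tested and for 2276 of the 12809 protein-coding genes, which were not matched to the members for expression level. The groups did not overlap in 39 of 50 members (78.0%), beside 75.5% of all genes tested, and each of the 34 called members was among them. The median log2 fold change of the 50 members was -0.016, beside -0.00095 over all genes tested and 0.036 over the protein-coding genes. The median of its absolute value was 0.20, beside 0.30 over all genes tested and 0.27 over the protein-coding genes.

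**Figure D1:**
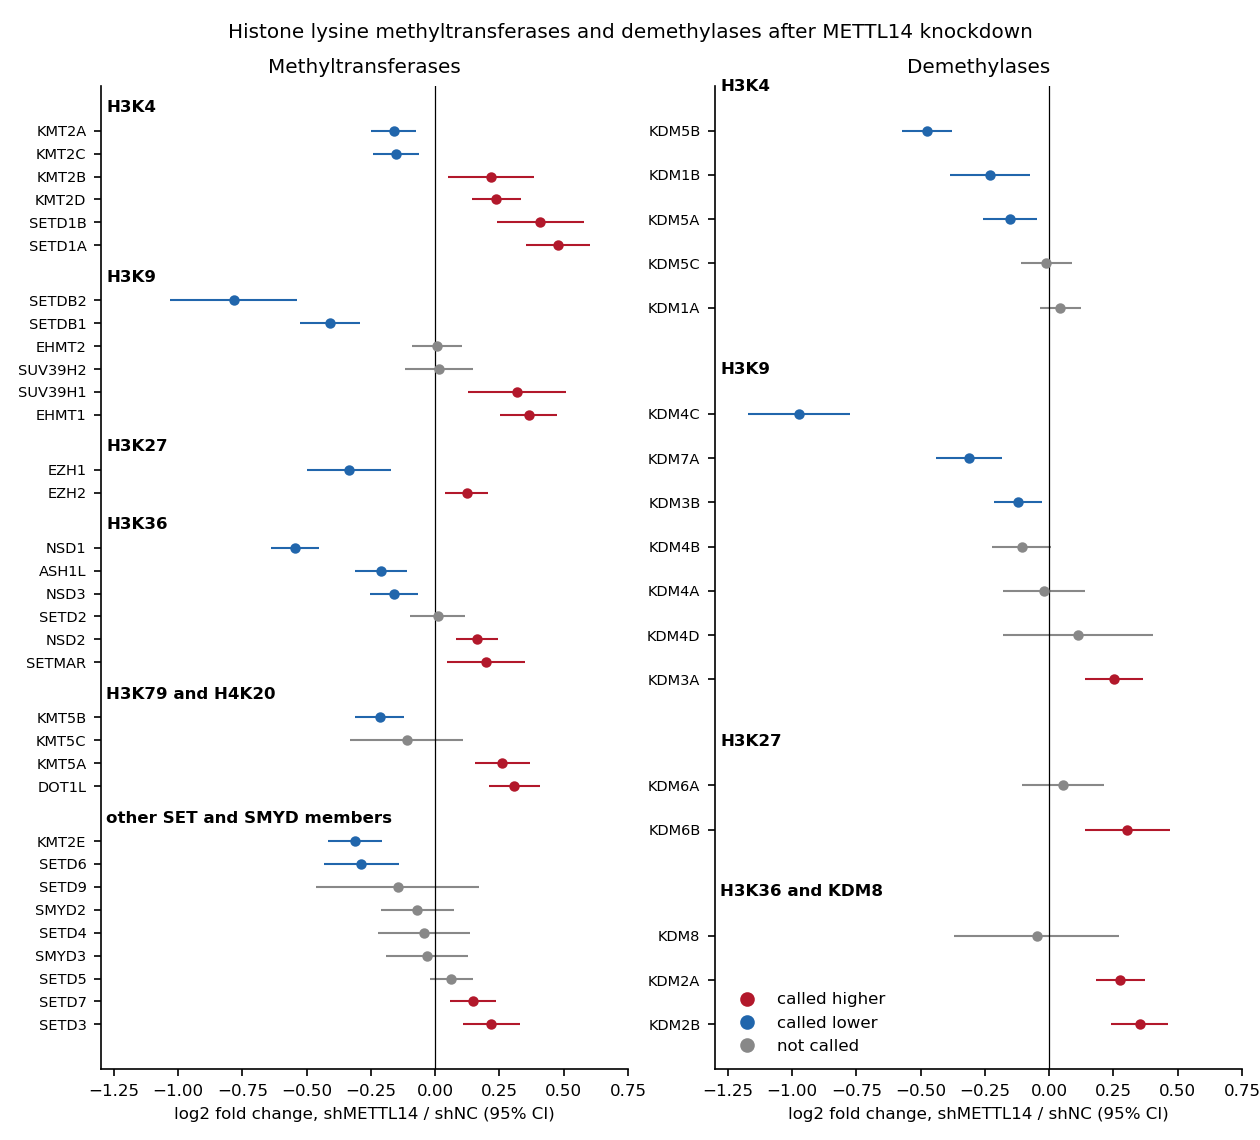
Log2 fold change (shMETTL14 over shNC) of the 50 members tested, by the lysine they act on, with 95% confidence intervals from the edgeR fit (x axis, log2 scale; red, called higher; blue, called lower; grey, not called). KDM4C (-0.97) and SETDB2 (-0.78) lie farthest to the left and SETD1A (0.48) farthest to the right, and most residues have points on both sides of 0.

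Per kilobase of exon, the scale on which genes can be compared, the members spanned a wide range. KDM1A was the most abundant in the shNC cells, at 83.2 ± 2.44 CPM per kb (SD, n = 2), followed by EZH2 at 47.7 ± 0.44 and SETD5 at 22.6 ± 0.47. The other 47 members lay below 20 CPM per kb, with a median over all 50 of 7.25, and the neighbours in that order, KDM3B at 14.9 ± 0.08 and KMT5A at 14.6 ± 0.58, differed by less than their spread. The lowest were KDM4C at 2.44, KMT2B at 2.41, SETDB2 at 2.02 and KDM8 at 1.59 CPM per kb. The 2 members with the largest fold decreases were thus among the least abundant. Lengths are merged exons of GENCODE 29, so a gene with many rare transcripts, such as EHMT1 (22217 bases), is placed too low on this scale.

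**Figure D2:**
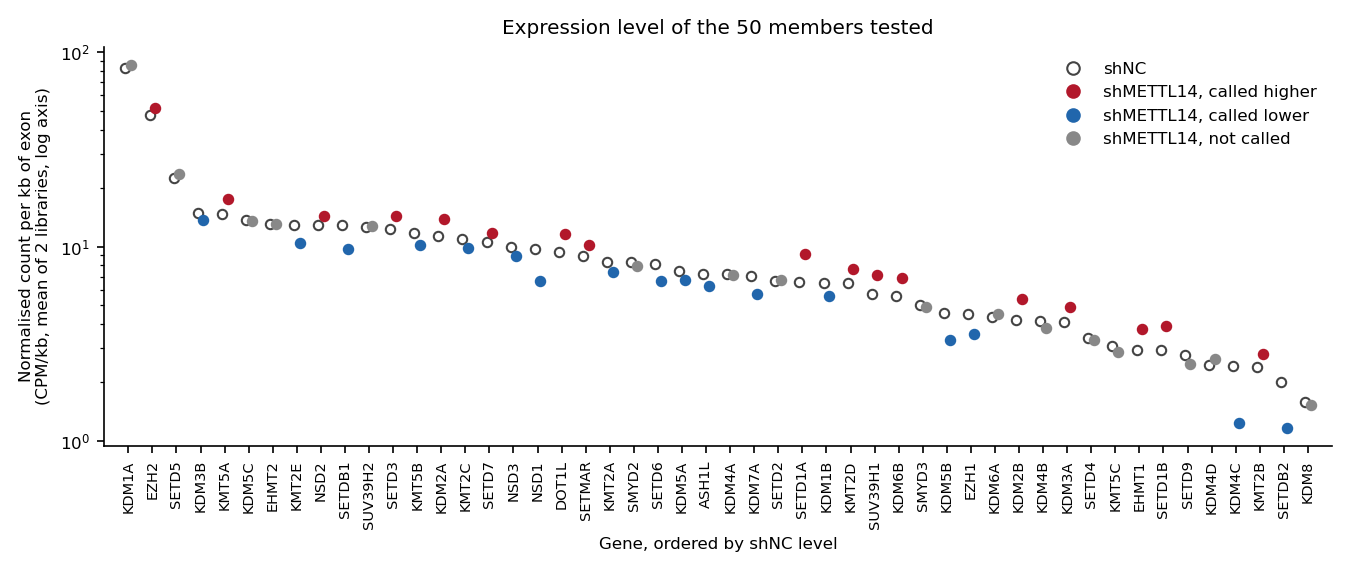
Expression level of the 50 members tested, as the mean of 2 libraries in CPM per kb of exon (y axis, log scale), ordered by the shNC level (open circles, shNC; filled circles, shMETTL14, colored by call). KDM1A (83.2), EZH2 (47.7) and SETD5 (22.6) stand above the other 47, which lie below 20.

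The largest change fell on KDM4C, a JmjC demethylase of H3K9 and H3K36 (chr9:6720863-7175648, GRCh38). It had 25.4 and 24.9 CPM in the shNC libraries and 13.6 and 12 CPM in the shMETTL14 libraries. The knockdown libraries held 50.9% of the control level, with no overlap (log2 fold change -0.97 ± 0.10, edgeR adjusted p = 2.0e-08). SETDB2, an H3K9 methyltransferase of the SETDB family (chr13:49444374-49495003), stood at 13.1 and 13.8 CPM in shNC and at 7.66 and 8.0 CPM in shMETTL14, 58.0% of control (-0.78 ± 0.12, adjusted p = 9.6e-06). These values rest on counts between 150 and 506 per library. NSD1, which dimethylates H3K36 and is mutated in Sotos syndrome (chr5:177133025-177300215), was measured with more counts, at 154 and 146 CPM in shNC and 104 and 102 CPM in shMETTL14. It was at 68.5% of control (-0.55 ± 0.05, adjusted p = 1.5e-09), and it was the third and last member called with a log2 change of at least 0.5 in either direction.

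No m6A was measured in these libraries. To show what the leading transcripts hold, the GGACT letters, the core of the sequence that the METTL3 and METTL14 enzyme prefers, were looked up on the transcript with the longest coding sequence. For each of 6 members with large changes, the GGACT nearest to the stop codon inside the coding sequence, with 12 bases of the same exon on each side, is printed below from GENCODE 29 (GRCh38), 5′ to 3′, with GGACT in capitals:
KDM4C, chr9:6805686-6805714, plus strand: acagggcagtcaGGACTgttcactcagta
SETDB2, chr13:49491770-49491798, plus strand: gctatgaagctgGGACTgtgcctgagaag
NSD1, chr5:177294168-177294196, plus strand: aagctctggcagGGACTtgtcagaggcca
SETDB1, chr1:150964265-150964293, plus strand: agaacttacttgGGACTacaactacgagg
KDM5B, chr1:202733441-202733469, minus strand: cgagtgggctcaGGACTgttatatagcag
SETD1A, chr16:30980079-30980107, plus strand: gaactcgggcctGGACTcagaggacatga
In SETDB2, SETDB1 and NSD1 this site lay in the last exon, 60, 80 and 1272 bases before the stop codon. In KDM4C the coding sequence held a single GGACT, in exon 3 of 22 and 2920 bases before the stop codon, and the whole transcript held 3. The SETDB2 transcript held 8, the SETDB1 transcript 9, the NSD1 transcript 9, the KDM5B transcript 10 and the SETD1A transcript 10. The median density was 1.23 GGACT per kb in the 17 members called higher, 1.02 in the 17 called lower and 0.82 in the 16 not called. Over the protein-coding genes tested the medians were 0.96, 0.89 and 0.95.

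All 6 H3K4 methyltransferases were called, 4 higher and 2 lower, with a median log2 fold change of 0.23. Of the protein-coding genes tested, 58.5% were called. SETD1A and SETD1B, the catalytic subunits of the COMPASS complexes that lay down most H3K4 trimethylation, rose together. SETD1A (chr16:30957294-30984664) went from 45.9 and 44.3 CPM in shNC to 64.8 and 60.8 CPM in shMETTL14 (0.48 ± 0.06, adjusted p = 7.4e-07). SETD1B had 23.9 and 24.9 CPM in shNC and 34.2 and 30.6 CPM in shMETTL14 (0.41 ± 0.08, adjusted p = 2.4e-04). The MLL genes split in pairs. KMT2D (MLL4), a methyltransferase of enhancers, rose from 138 and 130 to 155 and 161 CPM (0.24 ± 0.05, adjusted p = 1.3e-04), and KMT2B rose by 0.22 ± 0.08 (adjusted p = 0.0275). KMT2A (MLL1) fell from 268 and 253 to 235 and 231 CPM (-0.16 ± 0.04, adjusted p = 0.00239), and KMT2C (MLL3), the closest relative of KMT2D, fell by 0.15 ± 0.04 on the log2 scale (adjusted p = 0.00517). The call of KMT2B was lost without shNC replicate 1 and without shMETTL14 replicate 2 (0.19 in both), and that of KMT2C without shNC replicate 1 (-0.11) and without shMETTL14 replicate 1 (-0.13). A gene without a symbol (ENSG00000285827) shares 17.9% of the exonic bases of KMT2A on the same strand, and HTSeq in its default mode gives reads from shared bases to neither gene.

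Among 6 H3K9 methyltransferases, SETDB1 and SETDB2 fell, EHMT1 and SUV39H1 rose, and EHMT2 and SUV39H2 were not called. SETDB1 (chr1:150926263-150964744), which silences endogenous retroviruses together with the corepressor TRIM28, went from 89.6 and 92.6 CPM in shNC to 72.8 and 64.2 CPM in shMETTL14, 75.2% of control (-0.41 ± 0.06, adjusted p = 2.4e-06). Its last exons overlap those of CERS2 on the other strand, over 13.4% of its exonic bases. EHMT1 (GLP) had 67.9 and 62.6 CPM in shNC and 84.4 and 83.5 CPM in shMETTL14 (0.36 ± 0.05, adjusted p = 5.3e-06). Its partner EHMT2 (G9a), with which it forms the H3K9 mono- and dimethylating enzyme, stood at 93.8 and 96.6 CPM in shNC and at 94.0 and 97.3 CPM in shMETTL14, which overlap (0.01, 95% interval -0.09 to 0.10, adjusted p = 0.914). SUV39H1, a trimethylating enzyme of pericentric heterochromatin, had 20.7 and 17.9 CPM in shNC and 24.5 and 23.6 CPM in shMETTL14 (0.32 ± 0.09, adjusted p = 0.00612), and without shNC replicate 2 it was no longer called (0.22). An antisense gene (ENSG00000232828) overlaps 20.3% of the exonic bases of SUV39H1 on the other strand. SUV39H2 was at 45.4 and 44.4 CPM in shNC and 45.05 and 45.7 CPM in shMETTL14 (0.01, 95% interval -0.12 to 0.15).

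EZH1 and EZH2 are the alternative catalytic subunits of Polycomb repressive complex 2 (PRC2), which methylates H3K27, and they moved in opposite directions. EZH1, the form of resting cells, fell from 30.8 and 32.0 to 25.2 and 24.4 CPM (-0.34 ± 0.08, adjusted p = 0.00106). EZH2, the form of dividing cells, rose from 214 and 217 to 233 and 236 CPM (0.12 ± 0.04, adjusted p = 0.0132). Per length, EZH1 made up 8.50% and 8.70% of the pair in the shNC libraries and 6.54% and 6.28% in the shMETTL14 libraries. The increase of EZH2 was small, and its call was lost without shNC replicate 1 (0.11), without either shMETTL14 library (0.13 without replicate 1 and 0.12 without replicate 2) and with 2 other scalings of the libraries (upper quartile, 0.05, and library size alone, 0.08).

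H3K36 is methylated by NSD1, NSD2, NSD3 and ASH1L to the dimethyl state and by SETD2 to the trimethyl state. NSD1, ASH1L and NSD3 fell, NSD2 and SETMAR rose, and SETD2 was not called. NSD2, the gene overexpressed in myeloma with t(4;14), was at 255 and 255 CPM in shNC and 289 and 282 CPM in shMETTL14 (0.16 ± 0.04, adjusted p = 0.00151), a call lost with upper quartile scaling (0.09). NSD3 stood at 157 and 147 CPM in shNC and 134 and 138 CPM in shMETTL14 (-0.16 ± 0.05, adjusted p = 0.00491), and its call was lost without shNC replicate 1 (-0.12) and without shMETTL14 replicate 1 (-0.13). Between these paralogs, NSD1 made up 30.0% and 29.5% of the summed level per length in shNC and 22.3% and 22.1% in shMETTL14, and NSD2 went from 38.9% and 40.3% to 48.5% and 47.6%. ASH1L, a SET protein of active genes, fell by 0.21 ± 0.05 on the log2 scale (adjusted p = 8.6e-04). SETMAR, a SET domain fused to a transposase, rose by 0.20 ± 0.07 (adjusted p = 0.0268), and its call was lost without shNC replicate 1 (0.18), without shMETTL14 replicate 1 (0.21) and without shMETTL14 replicate 2 (0.20). SETD2 differed by 0.01 (95% interval -0.10 to 0.12).

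DOT1L, the sole H3K79 methyltransferase known, had 110 and 101 CPM in shNC and 133 and 128 CPM in shMETTL14 (0.31 ± 0.05, adjusted p = 1.2e-05). KMT5A (SET8), which monomethylates H4K20 in mitosis, rose from 65.1 and 68.9 to 80.5 and 80.0 CPM (0.26 ± 0.05, adjusted p = 2.0e-04). KMT5B, which takes that mark to the di- and trimethyl states, fell from 103 and 101 to 87.5 and 87.7 CPM (-0.22 ± 0.05, adjusted p = 4.7e-04). KMT5C, with the same activity, was at 14 and 15.6 CPM in shNC and 13.2 and 14.2 CPM in shMETTL14, which overlap (-0.11, 95% interval -0.33 to 0.11). The monomethylating KMT5A thus went from 49.0% and 50.2% of the KMT5 level per length to 57.7% and 57.1%.

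The remaining 9 SET and SMYD genes, several of which act on proteins other than histones, held 4 calls, beside 58.5% of protein-coding genes called. KMT2E, an MLL relative without known methyltransferase activity, fell from 125 and 113 to 95.5 and 96.2 CPM (-0.31 ± 0.05, adjusted p = 2.0e-05). SETD6, which methylates the NF-kappaB subunit RELA, fell by 0.29 ± 0.07 on the log2 scale (adjusted p = 0.00152), though 21.4% of its exonic bases lie opposite CNOT1 exons. SETD3, the histidine methyltransferase of actin, rose by 0.22 ± 0.05 (adjusted p = 0.00146). SETD7 rose by 0.15 ± 0.04 (adjusted p = 0.00642), and without shMETTL14 replicate 1 it was not called (0.14). SETD4, SETD5, SETD9, SMYD2 and SMYD3 were not called, with log2 fold changes between -0.15 (SETD9) and 0.06 (SETD5).

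**Figure D3:**
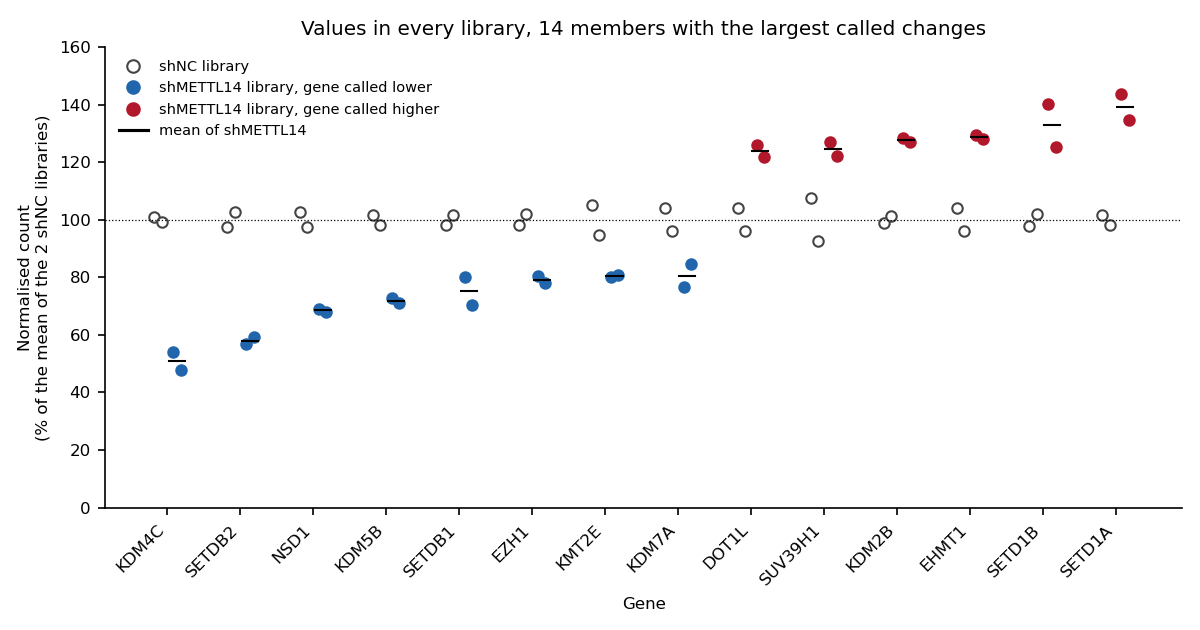
Normalised count of the 14 members with the largest called changes in each library, as a percentage of the mean of the 2 shNC libraries (y axis; open circles, shNC; filled circles, shMETTL14; horizontal bars, the mean of shMETTL14). In all 14 the shMETTL14 libraries lie on 1 side of both shNC libraries, from KDM4C at a mean of 50.9% to SETD1A at 139%.

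Of the 5 H3K4 demethylases tested, 3 were called, all lower, beside 58.5% of protein-coding genes called in either direction. KDM5B (JARID1B, chr1:202724495-202809470), which removes H3K4 di- and trimethylation, had 120 and 116 CPM in shNC and 86.0 and 84.2 CPM in shMETTL14, 71.9% of control (-0.48 ± 0.05, adjusted p = 1.8e-08). KDM5A fell from 89.9 and 91.3 to 84.6 and 78.2 CPM (-0.15 ± 0.05, adjusted p = 0.0143), while KDM5C was at 124 and 114 CPM in shNC and 120 and 116 CPM in shMETTL14, which overlap (-0.01, 95% interval -0.11 to 0.09). The share of KDM5B in the level per length of these 3 paralogs went from 17.7% and 17.9% to 13.8% and 14.1%. KDM1A, the most abundant member, did not pass the test, at 462 and 443 CPM in shNC and 464 and 469 CPM in shMETTL14 (0.04, 95% interval -0.04 to 0.12, adjusted p = 0.356). KDM1B, the other flavin-dependent demethylase, fell from 37.9 and 35.2 to 31.9 and 30.5 CPM (-0.23 ± 0.08, adjusted p = 0.0136). The call of KDM5A was lost without shNC replicate 2 (-0.14) and without shMETTL14 replicate 2 (-0.09), and that of KDM1B without shNC replicate 1 (-0.18) and without shMETTL14 replicate 2 (-0.19).

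Of the H3K9 demethylases, KDM4C, KDM7A and KDM3B fell and KDM3A rose. The relatives of KDM4C did not pass the test: KDM4A was at 39.1 and 35.9 CPM in shNC and 39.1 and 34.9 CPM in shMETTL14 (95% interval -0.18 to 0.14). KDM4B, studied in NB as a partner of MYCN, stood at 61.3 and 60.1 CPM in shNC and 56.2 and 56.5 CPM in shMETTL14 (-0.11, 95% interval -0.22 to 0.01), and it was called lower with upper quartile scaling (-0.17) and with library size alone (-0.15). KDM4D was at 7.27 and 7.36 CPM in shNC and 8.32 and 7.48 CPM in shMETTL14 (0.11, 95% interval -0.18 to 0.40). KDM4C thereby went from 14.8% and 15.2% of the KDM4 level per length to 8.50% and 8.15%. For KDM4A, 40.2% of the exonic bases are shared with another annotated gene on the same strand (ENSG00000284989), and the handling of such reads in this table is not given in the sources used here. KDM7A, a demethylase of H3K9 and H3K27, fell from 69.3 and 64.1 to 51.1 and 56.5 CPM (-0.31 ± 0.06, adjusted p = 2.0e-04). KDM3A, a target of hypoxia signaling, rose from 54.2 and 56.0 to 65.2 and 66.1 CPM (0.25 ± 0.06, adjusted p = 5.7e-04). Its paralog KDM3B fell from 118 and 119 to 109 and 109 CPM (-0.12 ± 0.04, adjusted p = 0.0255), a call lost without shNC replicate 2, without shMETTL14 replicate 1 and without shMETTL14 replicate 2 (-0.11, -0.12 and -0.11).

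The H3K27 demethylase KDM6B (JMJD3), an early response gene, was at 45.3 and 36 CPM in shNC and 49.2 and 51.3 CPM in shMETTL14 (0.30 ± 0.08, adjusted p = 0.00305). The shNC libraries differed more from each other than the higher of them did from the shMETTL14 libraries, and without shNC replicate 2 the call was lost (0.15). KDM6A (UTX) was at 31.9 and 29.8 CPM in shNC and 32.9 and 31.1 CPM in shMETTL14, which overlap (0.05, 95% interval -0.11 to 0.21). The H3K36 demethylases KDM2A and KDM2B, which bind unmethylated CpG islands through a CXXC domain, rose together. KDM2A went from 120 and 117 to 139 and 148 CPM (0.28 ± 0.05, adjusted p = 2.5e-05) and KDM2B, a subunit of a variant Polycomb complex 1, from 56.6 and 58.0 to 73.6 and 72.7 CPM (0.35 ± 0.05, adjusted p = 8.3e-06). KDM8 was not called (-0.05, 95% interval -0.37 to 0.27).

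A set of 14 paralogous families can be drawn from the members, and in 5 of these 14 at least 1 member was called higher and another lower (KMT2A to KMT2D, NSD1 to NSD3, EZH1 and EZH2, KMT5A to KMT5C, KDM3A and KDM3B). In SETD1A and SETD1B, SETDB1 and SETDB2, and KDM2A and KDM2B, 3 of 14 families, every member was called in the same direction. Among single protein-coding genes tested, 4221 of 12809 were called higher and 3273 lower. How many families of either kind these shares would give was not worked out. Levels per length were also summed over each family, which treats the paralogs as interchangeable. Of single genes tested, 75.5% did not overlap between the groups, and in 12 of the 14 families the sums did not overlap. The exceptions were KDM1A and KDM1B and the MLL genes. The summed level of KMT2A to KMT2D was 28.96 and 27.4 CPM per kb in shNC and 27.5 and 28.1 in shMETTL14, and these values overlap although each of the 4 genes was called. KDM3A and KDM3B summed to 18.9 and 19.1 CPM per kb in shNC and 18.5 and 18.6 in shMETTL14, 97.8% of control. Where both paralogs were called in the same direction, SETD1A and SETD1B reached 137% of control, KDM2A and KDM2B 123%, and SETDB1 and SETDB2 72.9%. By residue, the summed level was 108% of control for the H3K4 methyltransferases and 99.5% for the H3K4 demethylases, the latter being mostly KDM1A. For H3K9 it was 96.8% for the methyltransferases and 92.5% for the demethylases, and for H3K36 it was 96.0% for the methyltransferases and 121% for KDM2A, KDM2B and KDM8. For H3K27 it was 106% for EZH1 and EZH2 and 115% for KDM6A and KDM6B. Each gene was counted under a single residue, and the sums depend on that choice. KDM7A (7.07 CPM per kb in shNC, 5.70 in shMETTL14) was counted under H3K9, although it also acts on H3K27. KDM4C (2.44 and 1.24) was likewise left out of the H3K36 demethylase sum. These sums, and the shares of paralogs above, use merged exon lengths, for example 19776 bases for NSD2, 25882 for KDM5B and 13423 for KDM3A. Their transcripts with the longest coding sequence have 7827, 6520 and 4311 bases, so these genes may weigh too little here. KDM3A rose and KDM3B fell, so the direction of their sum, at 97.8% of control, depends on the lengths used.

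**Figure D4:**
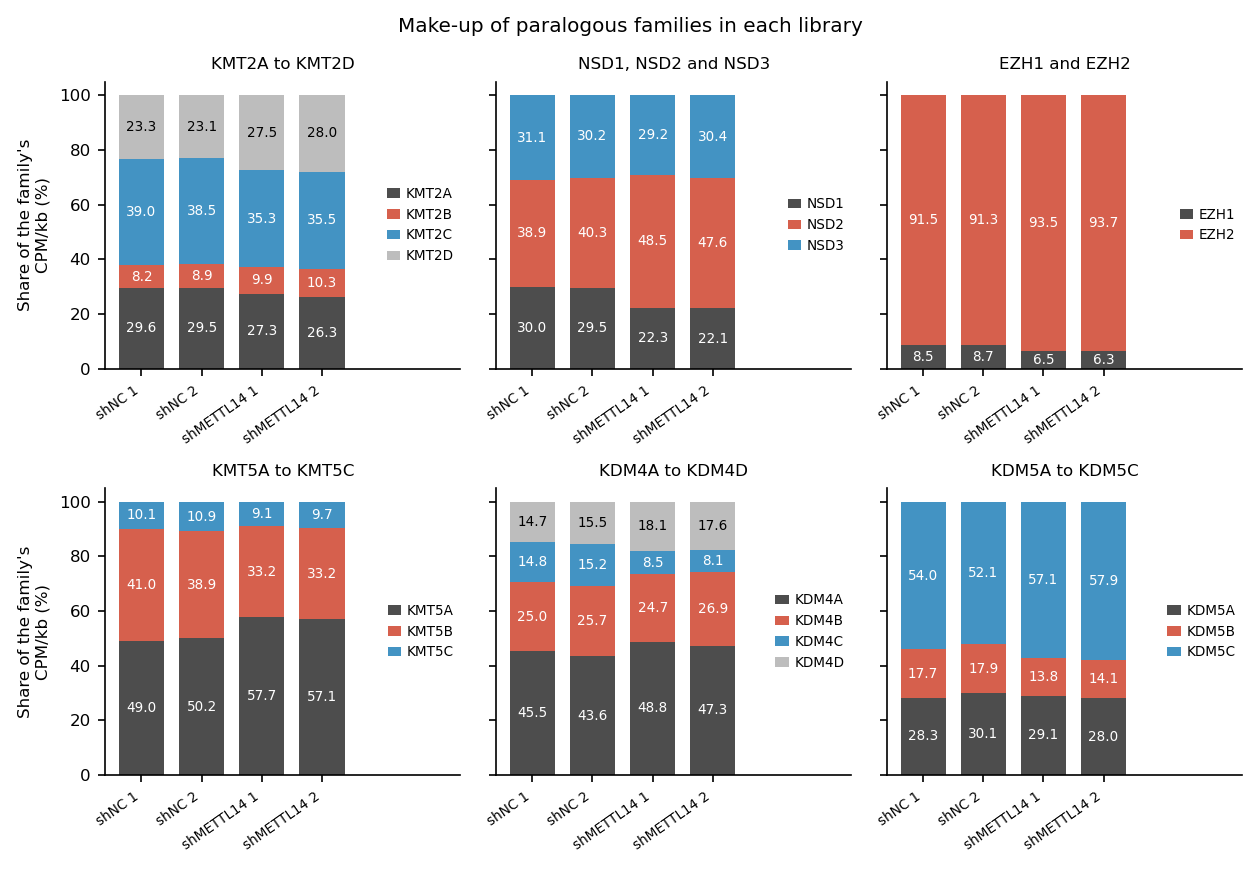
Share of each paralog in the summed level of its family in each library (y axis, percent of the family's CPM per kb of exon; 1 bar per library, colors for the genes). The NSD1 share is lower in the 2 shMETTL14 libraries (22.3% and 22.1%) than in shNC (30.0% and 29.5%), that of KDM4C is 8.50% and 8.15% beside 14.8% and 15.2%, and that of KMT2D is 27.5% and 28.0% beside 23.3% and 23.1%.

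The promoters of the members were matched to RefSeq (GRCh38.p14) by symbol, which gave 49 of 53 members. The window read was the 250 bases before each listed start. The E-box CACGTG, the sequence that MYC proteins bind, was searched because MYCN is the most abundant of the NB markers. It reads the same on both strands and occurred in 6.34% of all 35116 windows, in 11.3% of the 11343 genes tested that have a window, and in 8 of the 49 members (16.3%). These were KDM4C, NSD1, SETDB1 and SETD6, which fell, KMT2D, which rose, and EHMT2, KDM4B and KDM6A, which were not called. As examples, the windows of NSD1, SETDB1 and KMT2D are printed (5′ to 3′ in the direction of the gene, CACGTG in capitals, none of the window in an annotated exon):
NSD1, chr5:177131548-177131797, plus strand: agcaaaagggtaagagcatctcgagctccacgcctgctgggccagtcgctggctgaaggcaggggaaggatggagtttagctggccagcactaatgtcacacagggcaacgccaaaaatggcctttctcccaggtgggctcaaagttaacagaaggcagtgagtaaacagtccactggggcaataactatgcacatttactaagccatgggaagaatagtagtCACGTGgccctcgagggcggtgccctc
SETDB1, chr1:150926013-150926262, plus strand: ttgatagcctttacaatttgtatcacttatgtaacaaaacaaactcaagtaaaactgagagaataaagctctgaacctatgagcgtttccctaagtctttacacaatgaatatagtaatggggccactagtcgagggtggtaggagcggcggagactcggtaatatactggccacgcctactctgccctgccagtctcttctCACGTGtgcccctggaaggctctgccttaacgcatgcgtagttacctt
KMT2D, chr12:49060795-49061044, minus strand: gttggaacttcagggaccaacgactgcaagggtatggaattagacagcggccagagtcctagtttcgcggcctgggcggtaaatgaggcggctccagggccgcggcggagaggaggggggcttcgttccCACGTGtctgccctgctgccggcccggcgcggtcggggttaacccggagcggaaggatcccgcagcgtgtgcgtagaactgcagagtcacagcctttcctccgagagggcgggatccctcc
The E-box began 27 bases upstream of the listed start in NSD1, 48 bases in SETDB1 and 121 bases in KMT2D. The listed starts of NSD1 and KMT2D lie upstream of their GENCODE gene starts, at chr5:177133025 and, on the minus strand, chr12:49059774. The other 3 sequences searched, on both strands, were CCAAT (38.8% of members and 41.4% of tested genes with a window), the NRF1 core (8 of 49 members, 16.3%, and 12.04% of tested genes) and the E2F-like TTTNGCGC (0 of 49 members and 2.99%). The CCAAT and NRF1 letters occurred in 32.0% and 5.07% of all windows and the E2F-like letters in 1.51%.

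Members called higher were richer in GC than members called lower. The median GC content of the transcript with the longest coding sequence was 57.3% in the 17 members called higher, 46.5% in the 17 called lower and 48.9% in the 16 not called. Of 15 members with at least 55% GC, 9 were called higher and 1, SETD6, lower, beside 1503 higher and 878 lower of 4215 protein-coding genes in that range. Of 13 members below 45% GC, 3 were called higher and 7 lower, beside 1284 higher and 1383 lower of 4418 protein-coding genes. Over all protein-coding genes tested the same medians were 50.8%, 47.0% and 49.98%. Across the 50 members, Pearson's r between GC content and log2 fold change was 0.46 and Spearman's rho 0.46, beside 0.03 and 0.09 over 12800 protein-coding genes. These are descriptions over genes that share libraries and base composition, and genes are not replicates. With GC content and transcript length smoothed out of each library, 32 members were called, 17 higher and 15 lower. KMT2B (0.18), KMT2C (-0.07), NSD3 (-0.06), KDM5A (-0.06) and KDM3B (-0.09) lost their call there, and KMT5C (-0.27), KDM4B (-0.15) and SETD5 (0.10) gained one. The part of GC content in the members' changes was not tested.

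**Figure D5:**
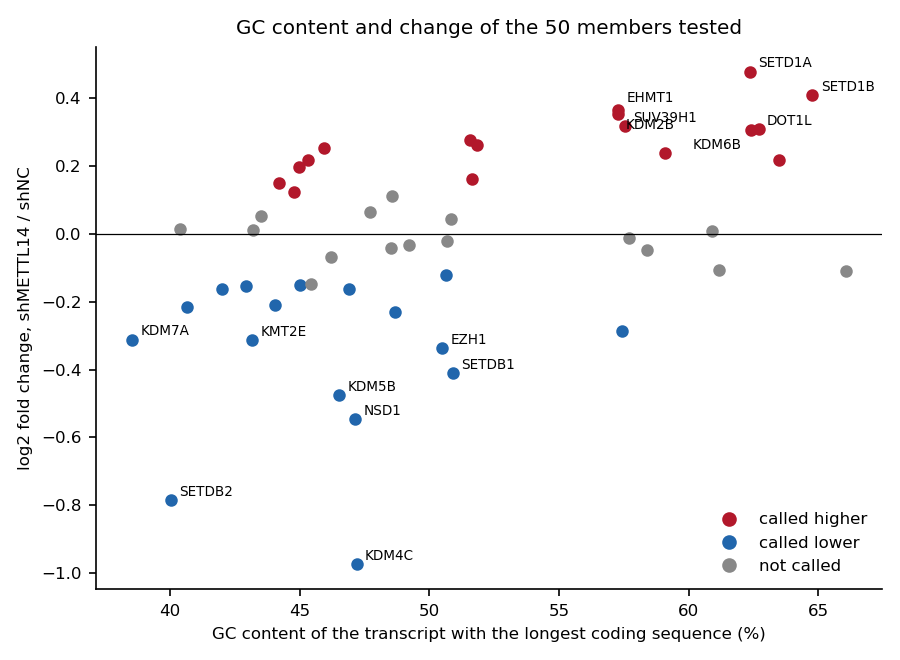
GC content of the transcript with the longest coding sequence (x axis, percent) and log2 fold change, shMETTL14 over shNC (y axis), of the 50 members tested (red, called higher; blue, called lower; grey, not called). Of the 15 members at 55% GC or more, 9 were called higher and 1 lower, beside 1503 and 878 of 4215 protein-coding genes.

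The enzymes work with partners, and lists of partner genes were examined in the same fit. Of 12 COMPASS and MLL complex subunits, all tested, 6 were called higher and 2 lower, with a median log2 fold change of 0.19. DPY30, a core subunit, rose from 51.1 and 55.5 to 70.4 and 70.9 CPM (0.41 ± 0.06, adjusted p = 3.0e-06), and RBBP5, another core subunit, fell from 42.5 and 41.3 to 38.3 and 33.4 CPM (-0.23 ± 0.07, adjusted p = 0.0146). Of 10 PRC2 subunits, 9 were tested, with 4 called higher and 2 lower. The core subunits EED (0.34 ± 0.07, adjusted p = 3.2e-04) and SUZ12 (0.22 ± 0.06, adjusted p = 0.00509) were among those higher, a choice made after their values were seen. RBBP4 (0.014, adjusted p = 0.788) and RBBP7 (-0.048, adjusted p = 0.349), also PRC2 subunits, were not called by edgeR. The largest called increase and decrease of this list were those of the accessory subunits PHF1 (0.35 ± 0.09, adjusted p = 0.00226) and PHF19 (-0.28 ± 0.06, adjusted p = 3.6e-04).

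Of 11 H3K9 methylation partners and readers, 3 were called higher and 4 lower. ATF7IP, which stabilizes SETDB1, fell from 105 and 107 to 73.6 and 70.3 CPM (-0.56 ± 0.05, adjusted p = 2.9e-09), and UHRF1, a reader of H3K9 methylation that brings DNMT1 to replicated DNA, rose from 136 and 139 to 184 and 182 CPM (0.41 ± 0.04, adjusted p = 3.4e-08). Of 9 subunits of LSD1 complexes, 1 was called higher (HDAC1, 0.12 ± 0.05, adjusted p = 0.0343) and 4 lower. Of 4 DOT1L complex subunits, MLLT1 rose (0.37 ± 0.04, adjusted p = 2.7e-07), and 2 fell, MLLT6 the most (-0.28 ± 0.04, adjusted p = 6.9e-06).

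Of 10 other JmjC and SET genes that the symbol rule leaves out, 5 were called higher and 2 lower. JMJD6, a JmjC hydroxylase, had 11.99 and 15.6 CPM in shNC and 24.8 and 25.6 CPM in shMETTL14 (0.87 ± 0.11, adjusted p = 4.0e-07). PHF8, a demethylase of H3K9 and H4K20, fell from 41.0 and 38.1 to 23.8 and 24.9 CPM (-0.70 ± 0.08, adjusted p = 1.2e-07). Of 9 enzymes that make or recycle the cofactors, 1 was called higher and 4 lower. MAT2A, which makes S-adenosylmethionine, fell from 679 and 683 to 551 and 550 CPM (-0.31 ± 0.04, adjusted p = 3.3e-07), and AHCYL2, a relative of the enzyme that clears S-adenosylhomocysteine, rose by 0.33 ± 0.13 (adjusted p = 0.033). Over all 7 partner lists, 41 of 64 tested genes were called, 21 higher and 20 lower, with a median log2 fold change of -0.01. These counts, and those of each list, are read against 52.5% of all genes tested and 58.5% of protein-coding genes called.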

How the data were processed

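The deposited values are raw counts, made by the authors for each Ensembl gene in 2 shNC and 2 shMETTL14 libraries of SK-N-BE(2) cells (150-base paired reads, Illumina NovaSeq). The submitters' processing notes name HISAT2 2.1.0, StringTie 1.3.6, HTSeq 0.13.5, edgeR and the build GRCh38. The annotation release and strand setting are not given in the sources used here, so reads of genes that overlap on opposite strands cannot be told apart. Exons of 23 of the 53 members overlap another annotated gene, and those of 11 overlap a protein-coding one. Lines that name no gene, 19.1% to 19.9% of counts per library, were left out.

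Symbols, exon lengths, GC content and coordinates came from GENCODE 29 (GRCh38), which held 58453 of 60671 IDs, and promoters from RefSeq GRCh38.p14. Counts were tested with edgeR 4.0.16 in R 4.3.3: filterByExpr (minimum count 10, minimum total 15), TMM, quasi-likelihood F-test on the group, Benjamini-Hochberg adjustment over 16309 genes, called under 0.05. The procedure was tested on simulated data in which far fewer genes changed than were called here. That test does not cover scaling when this many genes change. Standard errors derive from the F statistic. With 2 libraries a group, exact permutation of the labels gives a two-sided p of 0.333 at best, and the calls therefore depend on the variance that edgeR pools over genes. Replicates differed beyond sampling noise (mean chi-square per gene 2.25 and 2.79 within groups, 35.5 to 36.7 between). Alternatives were other scalings and filters, DESeq2 1.42.0, a replicate block and leaving out each library.

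The members, partner lists and tests were chosen with earlier results of these data known. Each member could be named. Values per library were to be given for members called with a log2 change of at least 0.5 and their paralogs, and giving them for more members, like the GC and length correction, was decided after values were seen. Of each partner list the largest called increase and decrease are named, except 1 gene that is not reported here. All 4 sample columns were used, and 0 others were present.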

Additional observations from a re-analysis of the deposited data

How the results depend on the processing

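The members called numbered between 27 (DESeq2) and 34 across the alternatives other than a fold limit (34 in the reported fit), and no called member changed sign. Of the 34, 22 (10 higher and 12 lower) kept their call in each of these alternatives, among them KDM4C, SETDB2, NSD1, KDM5B, SETDB1, SETD1A and SETD1B. Requiring at least 1.5-fold left 2 members and 3071 of all genes, where 8561 had been called, and DESeq2 called 5556 of all genes. Leaving out each library gave 28 to 30 members and 7287 to 7458 genes called. Upper quartile scaling left 12 members higher and 18 lower (all genes: 3550 of 8511 higher), and library size alone 13 and 18. DESeq2 lost 7 member calls, KDM5A, SUV39H1, KDM3B, NSD3, KDM1B, SETMAR and KMT2B. Upper quartile scaling lost 5 (EZH2, NSD2, SETD7, SETMAR and KMT2B), library size alone 4 of these (not NSD2), both gained KDM4B as lower (-0.17 and -0.15), and no filter on low counts 2 (KDM5A and KDM3B).

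The members' median log2 fold change (-0.016) moved to -0.083 after upper quartile scaling and to -0.061 when only library size was used. It was -0.034 with at least 10 counts in every library, -0.044 with GC content and length smoothed out (added after the data were seen), and -0.013 to 0.0099 leaving out each library. The cause of these moves was not tested. METTL14 ranged from -1.33 to -1.15.

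With a replicate block, 34 members and 8926 genes were called, and no member call changed. Libraries that share a replicate number did not deviate together (Pearson's r -0.0018, Spearman's rho 0.02). This cannot show whether they share a culture, day or batch, which the labels do not give.

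Sign changes were confined, among the members tested and the alternatives run, to 11 of the 16 members not called. With upper quartile scaling, KDM1A became -0.024, KDM6A -0.015, SUV39H2 -0.053, SETD5 -0.0047, SETD2 -0.058 and EHMT2 -0.061. With library size alone, KDM1A became -0.0015, SUV39H2 -0.031, SETD2 -0.035 and EHMT2 -0.038. With at least 10 counts in every library, SUV39H2 became -0.0035, SETD2 -0.0083 and EHMT2 -0.011, and with GC content and length smoothed out SUV39H2 -0.028 and EHMT2 -0.064. Leaving out each library gave KDM4A between -0.10 and 0.067, KDM5C between -0.064 and 0.044, SETD9 between -0.31 and 0.0064, KDM8 between -0.096 and 0.0081, SETD2 between -0.0078 and 0.028, SETD4 between -0.12 and 0.045, and EHMT2 between -0.019 and 0.035. The fewest counts among the members not called, 116 to 298 per library, were those of SETD9, KDM4D, KDM8 and KMT5C, and their intervals were the widest of that group.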

Other observations

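The table also lists 17 non-coding or pseudogene entries whose symbol begins like a member's, of which 8 had a count and 6 were tested, and edgeR called 0 of these 6 (adjusted p between 0.0624 and 0.685). The nearest to the threshold was KDM7A-DT, a transcript that starts beside KDM7A, with 175 and 190 counts in shNC and 151 and 143 in shMETTL14 (log2 fold change -0.30 ± 0.13). KMT5AP2, a processed copy of KMT5A, had 27 and 38 counts in shNC and 49 and 47 in shMETTL14 (0.57 ± 0.29, adjusted p = 0.103), and how its reads were told from those of KMT5A is not given in the sources used here. KMT2E-AS1 had 60 and 50 counts in shNC and 57 and 62 in shMETTL14, which overlap.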
